A study of Mus musculus with 4 samples.

Results

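The epidermal growth factor (EGF) receptor family was followed here across the open chromatin of 4 mouse brain tumors. It was taken as 10 listed genes of the 21951 protein-coding genes in GENCODE M21, namely the receptors Egfr, Erbb2, Erbb3 and Erbb4 and the ligands Egf, Tgfa, Hbegf, Areg, Ereg and Btc. For each gene, peaks were taken over its promoters, 1000 bp to either side of any annotated start, and over its locus, the gene body with 20 kb on either side. The loci held 71 of the 122166 regions that remained after peaks sharing at least 1 bp were merged over the 4 lists.

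The tumors were formed by mG7080, a murine glioblastoma line made from mice that lacked tumor suppressor genes, after intracranial injection into C57BL/6 hosts without (KO) or with (WT) Esm1. The product of Esm1 is Endocan, a secreted proteoglycan of endothelial cells. The deletion was carried by the host alone, so tumor cells of both groups kept their own Esm1, and both groups came from this 1 line. There were 2 KO and 2 WT tumors, each a separate mouse, and each gave 1 ATAC-seq library, made by letting a transposase cut accessible DNA. Material is labelled as tumor tissue, whereas the study's methods name freshly isolated tumor cells and its results speak of cells that were defined as sphere cultures grown from the tumors, so the share of host cells, if any, is not settled.

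EGF receptors are tyrosine kinases that pair up when a ligand binds outside the cell. EGFR binds EGF, TGF-alpha, amphiregulin, epiregulin, betacellulin and HB-EGF, ERBB2 has no known soluble ligand and serves as a partner, and ERBB3 and ERBB4 bind neuregulins. The ligands are made as membrane proteins and are released by proteases, and the receptors signal through RAS-MAPK, PI3K and STAT proteins. Amplified or mutated EGFR is a hallmark of many human glioblastomas, and Endocan has been examined as an activator of this receptor. The study cites such activation in lung cancer and detected no EGFR phosphorylation by Endocan in its human glioblastoma cells. The question asked here was whether chromatin at these genes differed between KO and WT tumors.

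Esm1 itself had no promoter peak in any library, so peaks there do not check the genotype labels. The lists held 82975 and 85418 peaks in KO replicates 1 and 2, against 63000 and 100088 peaks in WT replicates 1 and 2. A peak's height is given below in read ends stacked at its highest point, recovered from the deposited fold and p-value, and its genome background is the lowest local background in that library's list, at 6.03 and 6.71 read ends in KO against 4.41 and 6.85 in WT. WT replicate 1 was therefore the shallowest library, and whether peaks missing there alone fell below detection was not tested. Promoters of neuronal marker genes were open in every library (6 of 6 genes each) and those of glioma and neural precursor markers nearly so (7 and 8 of 8 genes in KO, 8 and 7 in WT), and of 8 endothelial markers 3 and 4 had a promoter peak in KO against 2 and 5 in WT, with none in any library at Pecam1, Cdh5 and Tek.

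Reference sequences are shown first for the promoters on which the results turn, as the 250 bases before the RefSeq start, 5′ to 3′ on the strand of the gene. Of the 10 genes, 7 were matched in the RefSeq promoter table (build GRCm38.p6). Capitals mark matches, on either strand, to a GC box (GGGCGG), an ETS core (CCGGAA), the letters TATAAA of a TATA box or a cyclic AMP response element (TGACGTCA).
Egfr, chr11:16751953-16752202, plus strand: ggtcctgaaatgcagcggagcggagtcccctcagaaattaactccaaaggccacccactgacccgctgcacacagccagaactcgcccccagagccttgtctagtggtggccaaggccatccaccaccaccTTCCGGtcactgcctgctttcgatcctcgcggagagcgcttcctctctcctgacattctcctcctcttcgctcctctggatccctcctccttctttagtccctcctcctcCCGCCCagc
Egf upstream start, chr3:129755323-129755572, minus strand: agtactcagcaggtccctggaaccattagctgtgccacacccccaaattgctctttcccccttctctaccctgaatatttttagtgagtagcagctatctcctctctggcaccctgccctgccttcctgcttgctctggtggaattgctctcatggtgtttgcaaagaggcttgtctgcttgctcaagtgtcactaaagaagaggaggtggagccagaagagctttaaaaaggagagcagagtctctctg
Egf internal start, chr3:129725087-129725336, minus strand: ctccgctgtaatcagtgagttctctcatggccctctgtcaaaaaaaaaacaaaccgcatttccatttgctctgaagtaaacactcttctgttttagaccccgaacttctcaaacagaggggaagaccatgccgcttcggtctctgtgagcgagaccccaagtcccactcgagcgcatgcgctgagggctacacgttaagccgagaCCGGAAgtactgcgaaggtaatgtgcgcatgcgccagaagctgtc
Areg, chr5:91139349-91139598, plus strand: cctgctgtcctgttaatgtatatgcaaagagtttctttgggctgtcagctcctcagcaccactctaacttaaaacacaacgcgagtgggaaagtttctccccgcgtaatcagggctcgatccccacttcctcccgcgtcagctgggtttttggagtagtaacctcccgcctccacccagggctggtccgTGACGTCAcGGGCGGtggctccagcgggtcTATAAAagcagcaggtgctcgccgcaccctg
Egfr is shown because it was the only member with a promoter peak in some but not all libraries, Egf because its starts differed in height, and Areg because it carries a TATA box. The Egf windows had similar GC content, 52% before the internal start and 50.4% before the upstream start, but unlike CpG content. Observed over expected CpG, the frequency of the CG dinucleotide relative to that expected from base content, was 0.895 before the internal start and 0 before the upstream start, against a median of 0.373 over 32851 RefSeq promoters.

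Accessibility at the promoters was shared by both groups. A promoter peak was found in all 4 libraries for 8 of the 10 genes, against 62.3% of protein-coding genes. Egfr lacked one in WT replicate 1 alone, and Ereg had none in any library. Of the 10 genes, 0 had a promoter peak in both KO libraries and neither WT library (0.409% of 15150 genes with any promoter peak), and 0 showed the reverse (0.211%). The peaks were low. Among all promoters with a peak in the same library, the tallest promoter peak of a member stood at a median percentile of 14.2, with a range of 1.5 to 54.6 over 35 values, and 1 value lay above the median promoter. In bulk tumor material a lower peak can reflect fewer cells with that site open or less opening per cell, and these cannot be told apart.

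**Figure D1:**
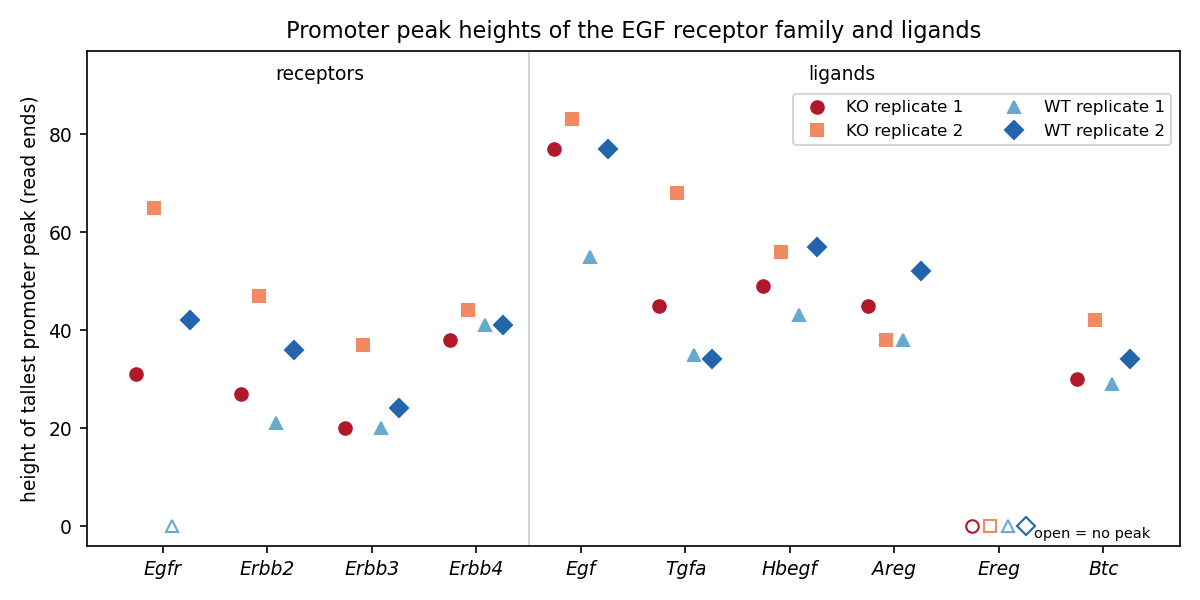
Height of the tallest promoter peak (vertical axis, read ends) for each gene (horizontal axis), with 1 point per library and KO libraries left of WT libraries. Egf reached 55 to 83 read ends in all 4 libraries, Ereg had no peak, and KO replicate 2 gave the tallest peak at 7 of the 9 genes with a peak.

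Among the receptors, Egfr is a receptor of EGF-like ligands. Its tallest promoter peak held 31 and 65 read ends in KO replicates 1 and 2. WT replicate 1 had no peak and WT replicate 2 had 42 read ends. KO replicate 2 was the highest and KO replicate 1 lay below WT replicate 2, so the libraries with a peak overlapped between groups. The gene lies on chromosome 11, 16752203 to 16918158, plus strand (mm10, as are all coordinates), and these peaks came from 2 places. At the coding start, region 16751895 to 16753085 held 26 and 65 read ends in KO against no peak and 26 in WT. Within the gene, 153 kb downstream, region 16904626 to 16905229 at the start of a non-coding transcript held 31 and 40 read ends in KO against no peak and 42 in WT. Only KO replicate 2 therefore stood apart at the coding start, while the internal site was alike in the 3 libraries that had it.

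The pattern of a promoter peak in all libraries but WT replicate 1 was shared by 289 genes, or 1.91% of those with any promoter peak. The genes with the most similar heights over the 3 remaining libraries were Id3, an inhibitor of basic helix-loop-helix factors, at 32 and 64 read ends in KO and 40 in WT replicate 2, then S100a14 and Actl10. Their summed absolute log2 differences from Egfr were 0.139, 0.495 and 0.576. With WT replicate 1 left out of the fit for this gene, limma gave Egfr a KO minus WT difference of 0.20 on the log2 scale (SE 0.35, 95% interval -0.53 to 0.94, adjusted p = 0.999). With WT replicate 1 set instead to the lowest height it called, 13 read ends, the difference was 0.84 (SE 0.41, interval -0.04 to 1.71, adjusted p = 0.995 in limma). Both fits, and the search for similar genes, used the tallest peak over any start. KO replicate 1 and WT replicate 2 thus entered with the internal site and KO replicate 2 with the coding start. The size of the Egfr difference rests on this mixture of sites and on how the missing peak in the shallowest library is treated. Neither value passed the test, and no difference for the coding start alone is given here.

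Erbb2 (chromosome 11, 98412470 to 98437716, plus strand), the partner receptor without a soluble ligand, had promoter peaks of 27 and 47 read ends in KO against 21 and 36 in WT. Erbb3, a kinase-impaired neuregulin receptor of glial lineages, had 20 and 37 read ends in KO against 20 and 24 in WT. In both genes KO replicate 2 was highest and the groups overlapped once libraries were centred on their median promoter height. Erbb4 (chromosome 1, 68032186 to 69108059, minus strand), a neuregulin receptor of neurons and other cells, had 38 and 44 read ends in KO against 41 and 41 in WT, and here the KO values lay on either side of the WT values. The Erbb3 peak sat upstream of the start rather than over it, at 128589753 to 128590722 on chromosome 10 against a start at 128589652 on the minus strand. A promoter of 500 bp on either side held it in both WT libraries and neither KO library, and peaks with −log10 q of at least 5 left it in 2 libraries.

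Among the ligands, Egf had the tallest promoter peaks of the family, at 77 and 83 read ends in KO against 55 and 77 in WT. These peaks were not at the start of the full-length transcript. They lay in region 129724503 to 129725826 of chromosome 3, 30.2 kb into the gene on the minus strand, over coding transcripts that begin at 129725087 and 129725077, 27 bp past exon 6 (129725115 to 129725240) of the long transcript. At the upstream start, 129755316, the peak held 26 and 20 read ends in KO against 20 and 26 in WT. The internal peak was 2.96 and 4.15 times as tall as the upstream one in KO and 2.75 and 2.96 times in WT, so every library showed the same order. Relative to genome background the internal peak was 12.8 and 12.4 in KO and 12.5 and 11.2 in WT. The antisense non-coding gene 6330410L21Rik begins at 129753758, 1558 bp from the upstream start, so accessibility of that gene and of upstream Egf cannot be told apart.

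The windows before the Egf starts also differed in sequence. The internal window, which includes exon 6 of the long transcript, held 1 ETS core, found in 12% of RefSeq promoters. The upstream window held no match to any of the 11 motifs searched. Besides those above, these were AP-1 (TGANTCA), the E-box CACGTG, the proneural E-box CAGCTG, the OLIG E-box CATATG, SOX (ACAATG), TEAD (GGAATG) and NFI (TTGGC), with shares in all RefSeq promoters of 3.46% (OLIG E-box) to 41.5% (NFI). CpG ratios were also taken at the starts of all coding-gene transcripts tagged basic in GENCODE, in windows that reach past the start, unlike those shown above. Of such starts, 93.1% of 19699 with a CpG ratio of at least 0.6 had a peak within 1000 bp in all 4 libraries, against 8.37% of 9339 with a ratio under 0.2. There were 2 members with a low-CpG start open in all 4 libraries, Btc (0.187) and the upstream start of Egf (0), and the Ereg start (0.426) had no peak in any, as had 44.0% of 12487 starts with a ratio of 0.2 to 0.6.

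Tgfa (chromosome 6, 86195223 to 86275719, plus strand), which encodes TGF-alpha, an autocrine growth factor of many epithelia and gliomas, had promoter peaks of 45 and 68 read ends in KO against 35 and 34 in WT, and both KO libraries lay above both WT libraries. After centring on library medians the KO values, -0.74 and -0.36, still lay above the WT values, -0.89 and -1.36. Relative to genome background the groups overlapped, at 7.47 and 10.1 in KO against 7.93 and 4.96 in WT. Hbegf (chromosome 18, 36504927 to 36515805, minus strand), which encodes heparin-binding EGF, had 49 and 56 read ends in KO against 43 and 57 in WT, and its centred values were -0.61 and -0.64 in KO against -0.60 and -0.61 in WT. The genes Ereg (91074622 to 91093646, plus strand), Areg (91139599 to 91148432, plus strand) and Btc (91357261 to 91402994, minus strand) lie in this order on chromosome 5. Areg, which encodes amphiregulin, had 45 and 38 read ends in KO against 38 and 52 in WT, with overlapping groups. Btc, which encodes betacellulin, had 30 and 42 read ends in KO against 29 and 34 in WT, likewise overlapping. Ereg, which encodes epiregulin, had no promoter peak in any of the 4 lists, and its locus held 1 and 2 peaks in KO against 0 and 2 in WT, none of them at its start. The Areg window above holds a cyclic AMP response element, a GC box and a TATA box with shares of 1.55%, 32.7% and 12.4% over all RefSeq promoters.

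The height test compared 8 genes with a promoter peak in all 4 libraries. Of these, 0 passed an adjusted p of 0.05 in limma in either direction, against 2 of 13675 promoters higher in KO (0.0146%) and 0 lower (0%). With heights scaled to genome background in place of the library median, which moved the median of all promoters to -0.112, 3 promoters were higher and 7 lower. At an unadjusted p under 0.05 there was 1 member, Tgfa, and 522 promoters in all (3.82%). The Tgfa difference was 0.58 on the log2 scale (SE 0.24, interval 0.07 to 1.09, adjusted p = 0.998, limma). It was 0.38 without KO replicate 2, 0.35 without WT replicate 2 and 0.47 with genome background scaling, and in each of these 0 members had an unadjusted p under 0.05. For the other 7 genes the difference lay between -0.21 (Areg) and 0.27 (Erbb2), with adjusted p = 0.998 for each in limma. The intervals ran from -0.35 to 0.89 for Erbb2, from -0.47 to 0.88 for Erbb3 and from -0.61 to 0.40 for Erbb4, so differences inside those ranges were not excluded with 2 tumors a group. The Egf interval, -0.09 to 0.48, was the narrowest of the 8. The median of the 8 differences was 0.13, beside 0.00 over all promoters.

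**Figure D2:**
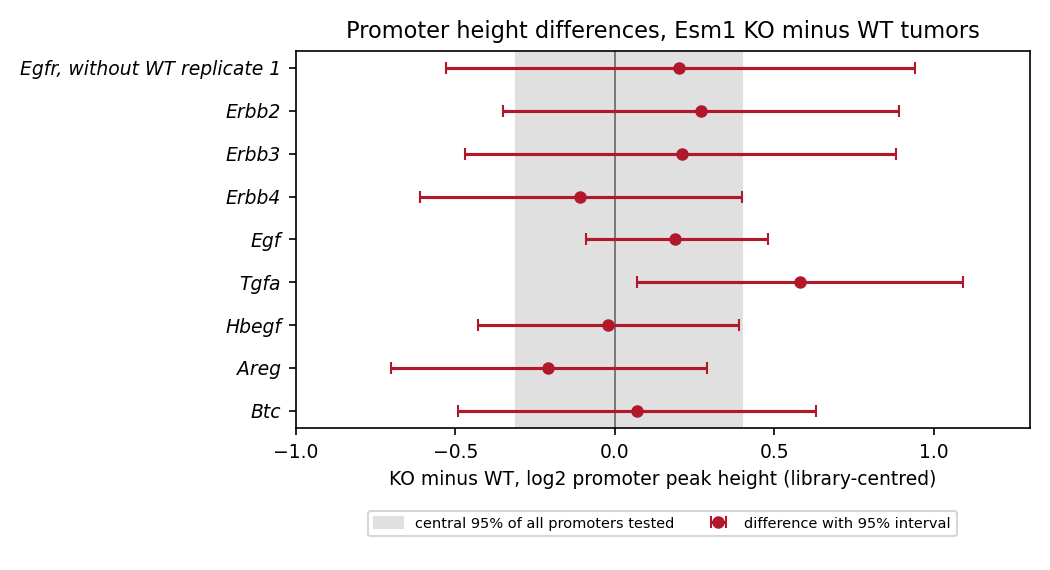
KO minus WT difference in log2 promoter peak height (horizontal axis) for each gene with unadjusted 95% intervals from limma, over a grey band for the central 95% of all promoters tested (-0.31 to 0.40). Only the Tgfa interval, 0.07 to 1.09, lies above 0, and Egfr is drawn without WT replicate 1.

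Counted by overlap, Egf and Tgfa had both centred KO heights above both WT heights (14.9% of all promoters did), and Hbegf had both below (16.2%), or 2 and 1 of 8 genes. Relative to genome background all 3 of these genes overlapped between groups, and WT replicate 1 held the tallest peak at 70.3% of all promoters. KO replicate 2 held the tallest promoter peak for 6 of the 8 genes in read ends, beside 48.3% of all promoters, and for 4 of the 8 after centring, beside 29.1%. Leaving KO replicate 2 out turned the sign of the Erbb2, Erbb3, Areg and Btc differences, at -0.03, -0.14, 0.01 and -0.07. Leaving WT replicate 1 out turned that of Erbb4 (0.10) and leaving WT replicate 2 out that of Btc (-0.02). With 2 tumors a group an exact permutation test of 1 gene cannot go below p = 0.33.

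Across the loci, 29 of 71 regions had a peak in all 4 libraries, or 40.8%, beside 39.4% of all merged regions. By place, 15 regions lay over a promoter of the member itself, 7 over the promoter of another gene, 36 in an intron, 1 in an exon and 12 between genes. Regions found in both KO libraries and neither WT library numbered 2 (1.66% of all regions), and 1 showed the reverse (1.45%). These 3 regions held low peaks. The KO-only region in intron 2 of Tgfa (chromosome 6, 86250864 to 86251467) had 20 and 37 read ends, and the KO-only region 22.7 kb downstream of the Hbegf start (chromosome 18, 36492627 to 36493573) had 16 and 33. The WT-only region in intron 2 of Btc (chromosome 5, 91366717 to 91367247) had 20 and 20 read ends. With peaks of −log10 q of at least 5, 0 KO-only and 0 WT-only regions were left in these loci, beside 1435 and 1471 over all regions. KO-only regions numbered 6, 4 and 12 without KO replicate 1, KO replicate 2 and WT replicate 2, and WT-only regions 2, 15 and 3 without KO replicate 1, WT replicate 1 and WT replicate 2. Over all regions the KO-only number, 2025 with all libraries, was 12177, 6352 and 17063 in the same settings, and the WT-only number, 1768 with all libraries, was 4877, 19160 and 5766.

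**Figure D3:**
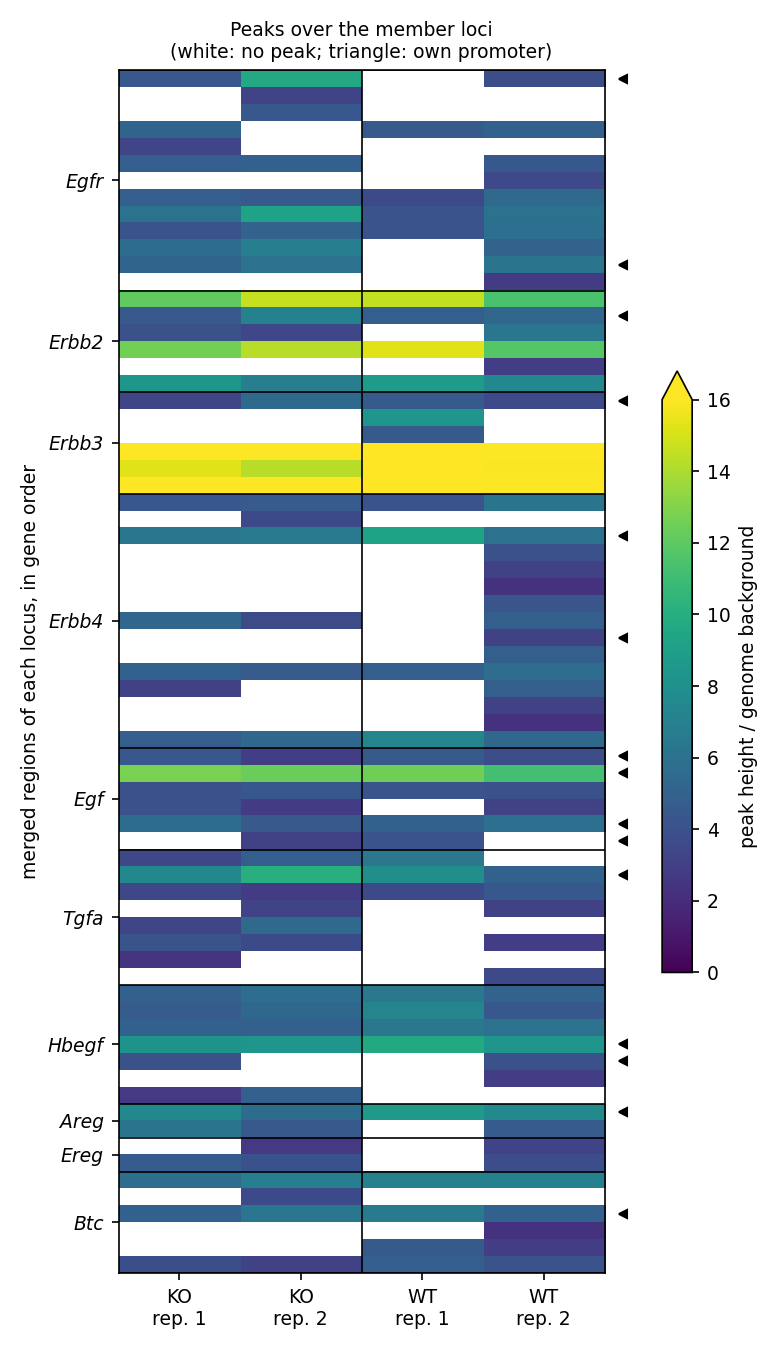
Peak height over genome background (colour, no unit) in each merged region of the 10 loci (rows, in gene order) and each library (columns, KO left of WT), with white where a library had no peak and triangles at promoters of the member itself. In Erbb4 8 regions have a peak in WT replicate 2 alone, and WT replicate 1 alone has peaks in the Erbb3 introns.

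Most regions not open in every library did not follow the groups, as over all merged regions. Few of the possible patterns over the 4 libraries can follow the groups. Peaks in WT replicate 2 alone, the library with the most peaks, made up 14 of the 71 regions, or 19.7% beside 14.2% of all regions, and 8 of these were in Erbb4. A further 10 regions, 14.1% beside 12.1% of all regions, were missing in WT replicate 1 alone, 4 of them at Egfr. WT replicate 1 alone held 2 regions (3.09% of all regions), both in Erbb3. In intron 1 (128586572 to 128586918) its peak held 37 read ends and in intron 4 (128583819 to 128584211) 20, while KO replicates 1 and 2 and WT replicate 2 had no peak at either. The intron 1 peak was 1.85 times as tall as the Erbb3 promoter peak of the same library.

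Erbb3 is known as a receptor of the oligodendrocyte and Schwann cell lineages. Of 6 mature oligodendrocyte markers, promoter peaks were found for 2 and 2 in KO against 5 and 2 in WT, the 5 being in WT replicate 1. The myelin genes Mog, Mag and Mobp had promoter peaks of 38, 29 and 33 read ends in WT replicate 1 and none in the other 3 libraries. Whether cells of that kind contributed to the Erbb3 peaks was not tested.

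The tallest regions of the Erbb2 and Erbb3 loci belonged to neighbours. Near Erbb2, the promoter of Mien1 held 76 and 96 read ends in KO against 67 and 81 in WT, and that of Pgap3 73 and 98 against 64 and 78, beside 27 and 47 against 21 and 36 at Erbb2 itself. Grb7, an adaptor often gained together with human ERBB2, had a promoter peak of 20 read ends in WT replicate 2 alone. Near Erbb3, the promoter of Pa2g4, which encodes an ERBB3-binding protein, held 130 and 144 read ends in KO against 129 and 163 in WT, and both regions over Rpl41 and Zc3h10 held 80 to 122 read ends in every library. In read ends KO and WT values overlapped at each of these neighbours apart from Grb7. Relative to genome background both KO values lay below both WT values at Pa2g4 (21.6 and 21.5 in KO against 29.2 and 23.8 in WT) and at both regions of Rpl41 and Zc3h10 (15.3 and 14.3 against 18.1 and 15.9, and 16.1 and 16.2 against 23.6 and 17.8). This scaling moved the median difference of all regions to -0.0975, and the share of all regions with this order was not counted. No height difference at these regions passed the limma test, with heights centred on library medians or scaled to genome background. Near Hbegf, the promoter of Slc4a9 held 30 and 39 read ends in KO against 28 and 35 in WT.

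At Egfr the 3 regions open in all libraries were intronic. Region 16831484 to 16832567 in intron 1, 79.8 kb from the start, held 36 and 62 read ends in KO against 18 and 41 in WT, with KO replicate 1 below WT replicate 2. Its difference was 0.68 on the log2 scale (SE 0.27, interval 0.16 to 1.2, adjusted p = 1.00, limma). It was 0.31 when KO replicate 2 was left out, 0.42 when WT replicate 1 was and 1.00 when KO replicate 1 was. Regions 16818553 to 16819773 in intron 1 (29 and 30 read ends in KO against 16 and 38 in WT) and 16861013 to 16861822 in intron 3 (25 and 34 against 18 and 40) overlapped between groups. The Egf locus held further regions in all libraries near an internal transcript start (34 and 30 read ends in KO against 22 and 40 in WT) and in intron 13 (24 and 29 against 18 and 27). At Erbb4, regions in intron 25 (29 and 36 against 32 and 37) and intron 20 (30 and 31 against 21 and 39) were open in all, as were, at Btc, a site 10.9 kb upstream (35 and 46 against 31 and 48) and 1 in intron 3 (23 and 21 against 21 and 28).

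**Figure D4:**
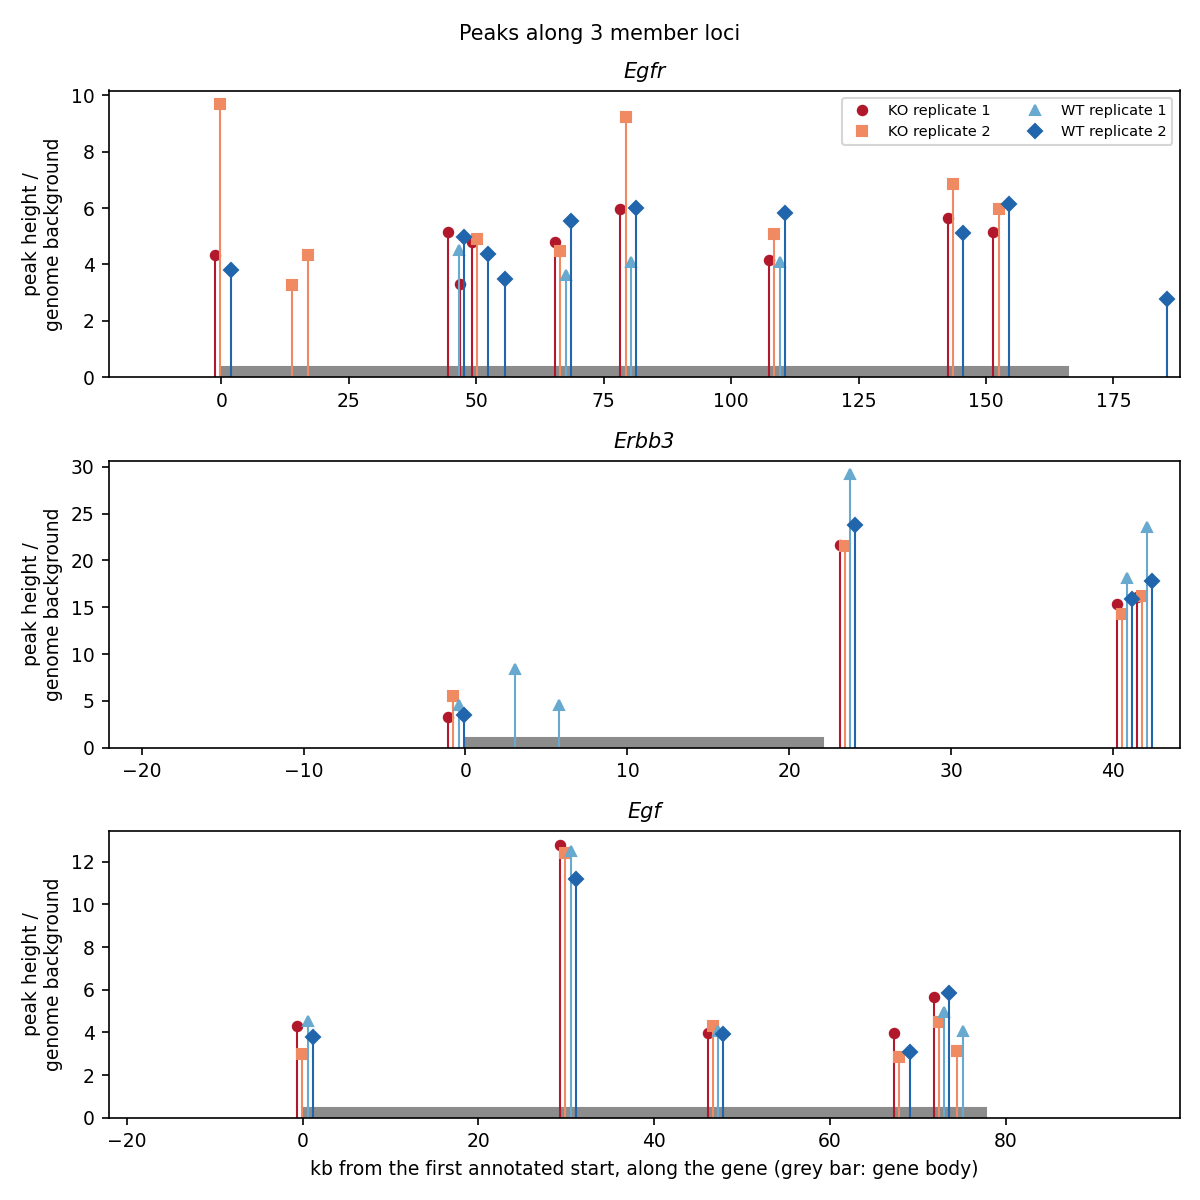
Peak height over genome background (vertical axis, no unit) against distance from the first annotated start along the gene (horizontal axis, kb) at Egfr, Erbb3 and Egf, 1 stem per library, drawn side by side, and a grey bar for the gene body. Egf peaks at 30.2 kb in all 4 libraries, and the Erbb3 introns hold peaks of WT replicate 1 alone.

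Of the 29 member regions tested, 0 passed an adjusted p of 0.05 in limma, against 18 of 48089 regions higher in KO (0.0374%) and 1 lower (0.00208%), or 16 and 3 with genome background scaling. At an unadjusted p under 0.05 there were 2, the Egfr intron 1 region and the Tgfa promoter (0.56, SE 0.25, which was 0.13 when WT replicate 2 was left out, 0.28 when KO replicate 2 was and 0.92 when WT replicate 1 was), or 6.90% beside 3.08% of all regions. The member median was -0.02, beside 0.00 over all regions.

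Egfr had 9 and 9 peaks in KO against 5 and 10 in WT, Tgfa 6 and 6 against 3 and 5, and Erbb4 6 and 7 against 7 and 14. Per 100000 peaks of the library, Egfr (10.8 and 10.5 in KO against 7.94 and 9.99 in WT) and Tgfa (7.23 and 7.02 against 4.76 and 5.0) were higher in both KO libraries, and Erbb4 (7.23 and 8.19 against 11.1 and 14.0) and Btc (3.62 and 4.68 against 6.35 and 5.0) lower. That is 2 and 2 of 8 genes with at least 2 peaks on average, where 11.6% and 14.5% of 15622 genes did so. Without WT replicate 1 the numbers were 5 and 2, without KO replicate 1 they were 2 and 4, and without WT replicate 2 they were 2 and 5. Over all genes they were 7360 and 4088 of 16031 without WT replicate 1, 3808 and 4799 of 15729 without KO replicate 1, and 3634 and 8058 of 15412 without WT replicate 2. In limma 0 of the 8 passed an adjusted p of 0.05, against 1 gene higher in KO (0.00640%) and 0 lower (0%). At an unadjusted p under 0.05 there was 1 member, Erbb4, with a difference of -0.66 on the log2 scale (SE 0.29, interval -1.23 to -0.09, adjusted p = 0.958, limma). These numbers count peaks, not merged regions. The 7 Erbb4 peaks of WT replicate 1 lay only in the 4 Erbb4 regions open in all libraries. Both KO libraries had peaks in those 4 regions and in further ones. The KO values at Erbb4 thus lay below WT replicate 1 only when peaks, not regions, were counted, and region numbers were not tested. The Erbb4 difference was -0.58 without KO replicate 1 and -0.75 without KO replicate 2. With peaks of −log10 q of at least 5 it was -0.02. At that threshold the Egfr difference was 1.10 (adjusted p = 0.810, limma), beside 0.24 with all peaks. There 1 member had an unadjusted p under 0.05 in limma. In lists cut to one length 0 members did, and with no flank 2 of 5 did. The other 2 genes, Areg (2 and 2 peaks in KO against 1 and 2 in WT) and Ereg, had too few peaks to be tested. Erbb2, Erbb3, Egf and Hbegf had 4 to 6 peaks in every library.

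Local background was compared because a gain in copy number raises it for every peak of a locus, and Egfr is often gained in human glioblastoma. At Egfr the median local over genome background was 1.00 and 1.18 in KO against 1.00 and 1.00 in WT, beside medians over all peaks of 1.18 and 1.17 in KO and 1.25 and 1.16 in WT. All other loci lay between 1.00 and 1.5 in every library with a peak there (Ereg had none in WT replicate 1), except Erbb3 (3.14 and 3.20 in KO against 2.14 and 3.19 in WT) and Erbb4 in WT replicate 1 (2.28). The Erbb3 locus holds the tall Pa2g4 and Rpl41 promoters named above.

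Most other genes of the pathway were open in all libraries. Of 56 listed genes 54 had a promoter peak in all 4 libraries, beside 62.3% of protein-coding genes, Rhbdf2, a cofactor of ligand shedding, had one of 25 read ends in KO replicate 1 and 23 in WT replicate 2 alone, and Epgn, the ligand epigen, had none. Their promoters were taller than those of the family, with medians of 88.5 and 106 read ends in KO and 78 and 104 in WT over the 54 genes, beside 41.5 and 45.5 in KO and 36.5 and 38.5 in WT over the 8 family genes. Of the 54 tested, 0 passed the limma test, and the median difference was 0.02 with a range of -0.32 to 0.58. By list, all 17 adaptors and RAS-MAPK effectors, all 11 PI3K, PLC and STAT effectors and all 19 feedback inhibitors were open in all libraries, as were 4 of 5 other ErbB ligands and 3 of 4 genes of ligand release. The medians of the lists lay between -0.15 (other ErbB ligands) and 0.09 (PI3K, PLC and STAT effectors).

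The 4 pathway genes with the largest absolute differences were Gab1, Stat5a, Sos2 and Nrg1. Gab1, a docking protein of activated receptors, had 51 and 119 read ends in KO against 51 and 46 in WT (0.58, SE 0.26, interval 0.04 to 1.12, adjusted p = 0.998, limma). Stat5a, a transcription factor that receptors activate, had 24 and 61 read ends in KO against 24 and 28 in WT. In both, KO replicate 2 alone stood above the other 3 libraries, and it held the tallest peak in read ends at 48.3% of all promoters. Sos2, an exchange factor that activates RAS, had 68 and 79 read ends in KO against 71 and 102 in WT (-0.32, SE 0.12, interval -0.57 to -0.07, adjusted p = 0.998, limma), and Nrg1, the neuregulin that binds ERBB3 and ERBB4, had 66 and 61 in KO against 50 and 98 in WT. Gab1 and Sos2 were the 2 of 54 pathway genes with an unadjusted p under 0.05 in limma, beside 3.82% of all promoters.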

How the data were processed

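ATAC-seq peak lists of 2 Esm1 KO and 2 WT tumors were analysed, 1 list per tumor, grouped by sample titles. The genes and lists were chosen with earlier results of these data known, and heights had been tested in that earlier work after the data were seen. The submitters' notes name MACS2, HOMER and mm10. The study's methods name Bowtie2, GRCm38 and Genrich and state that mitochondrial reads and duplicates were discarded; the columns followed MACS2 arithmetic. A shift of reads to the transposase cut site is not described in the sources read here.

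The authors deposited per peak the ratio (fold) of its signal to its surroundings, the −log10 of the p-value, the −log10 of the q-value and a score, with peaks called per sample. Only the fold, the −log10 values and the summit were used. Height was recovered as the whole number whose Poisson tail matched the deposited −log10 p within 0.001, which succeeded for all 331481 peaks. The lists hold no read counts, so precision is limited by the number of tumors. P-values rest on the spread between 2 tumors per group, which limma moderated with the spread over all features. Total degrees of freedom were 17.0 at promoters tested in all 4 libraries, 197 at locus numbers and 96178 at regions. Most of each variance estimate therefore came from other features.

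Log2 heights, centred on library medians, were fitted with limma 3.58.1 (R 4.3.3) with a mean-variance trend and Benjamini-Hochberg adjustment over all features with a peak in all 4 libraries, and locus peak numbers as log2 of (peaks + 0.5) per 100000. At regions the fitted prior took each variance wholly from the trend. Recovery and fit were tested on simulated data. Named regions were the KO-only and WT-only ones, any past the test and up to 3 tallest per locus, and named pathway genes the 4 with the largest absolute differences. Alternatives varied the libraries, peak threshold, promoter width, flank, overlap, scaling, treatment of missing peaks, tumor number as a block and pseudocount.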

Additional observations from a re-analysis of the deposited data

How the results depend on the processing

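No member promoter, member region or member locus passed limma's adjusted p of 0.05 under any alternative run. Of 158 recomputed differences, 8 turned in sign and 0 passed, with adjusted p between 0.163 and 1. Without 1 library at a time (a lone tumor is then assumed to vary like the other group) the ranges were -0.03 to 0.55 for Erbb2, -0.14 to 0.54 for Erbb3, -0.32 to 0.10 for Erbb4, -0.44 to 0.01 for Areg, -0.07 to 0.20 for Btc and 0.35 to 0.81 for Tgfa, 0.31 to 1.00 for the Egfr intron 1 region and -0.80 to -0.52 for the Erbb4 locus number. Btc also turned under genome background scaling (-0.03), and the Tgfa locus number at −log10 q of at least 5 (-0.07). Genome background scaling moved the median of all promoters to -0.112, and the cause of the other turns was not tested.

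KO-only members numbered 0 to 1 without 1 library (Egfr, without WT replicate 2, beside 351 of 14969 genes). WT-only members numbered 1 with promoters of 500 bp (Erbb3, beside 25 of 14818 genes). KO-only regions numbered 3 to 12 and WT-only regions 1 to 15 without 1 library, the highest being without WT replicate 2 and without WT replicate 1. At the stricter threshold they numbered 0 and 0, when lists were cut to one length 1 and 1, 1 and 0 where 50% of a region had to be covered, 1 and 1 with no flank and 2 and 3 with 50 kb, and with no flank 17 regions were open in every library. Loci with both KO above both WT numbered 2 to 5 without 1 library, and those with both below 2 to 5. At the stricter threshold they numbered 1 and 0, beside 1414 and 2173 of 14224 genes. In lists of one length they numbered 0 and 1, beside 650 and 961 of 14413 genes. With 50 kb flanks they numbered 4 and 3, beside 2105 and 2417 of 18012 genes.

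Over all features, promoters called higher and lower in KO were 2 and 0, but 114 and 57 without KO replicate 1, 0 and 0 without the trend and 5 and 5 with the replicate block. Regions, 18 and 1, ranged from 0 to 68 and from 0 to 24. Locus numbers, 1 and 0, reached 110 and 33 without WT replicate 2, and 228 and 351 in lists of one length, where equal totals give ties with no variance. In this balanced design the replicate block cannot move a difference (0.58 at the Tgfa promoter with it) and so says nothing of its stability; it left 0 members past the test. Tumor numbers are shared only as labels: deviations of same-numbered tumors correlated at -0.21 over promoters, so no pairing was used.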

Other observations

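The 71 regions of the family's loci were searched for the same letters in 200 bases around each summit, beside 122097 regions of the whole series. An ETS core was in 9 member windows (12.7%, beside 4.51% of all), a GC box in 13 (18.3%, beside 12.1%), the E-box CAGCTG in 17 (23.9%, beside 16.4%) and AP-1 letters in 7 (9.86%, beside 12%). NFI letters were in 36.6% of member windows, beside 37.0% of all. Member loci hold 22 promoter regions, and no test was run on these shares.

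Of markers of other cells in a brain tumor, promoter peaks were found for 3 and 2 of 6 mural genes in KO against 2 and 5 in WT, for 2 and 2 of 8 microglia and macrophage genes against 0 and 2, for 5 of 6 astrocyte genes in every library, and for 1 and 2 of 6 epithelial genes against 0 and 1.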
